A study of Mus musculus with 696 samples.

Results

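Small proline-rich (SPRR) proteins are short, proline-rich building blocks of the cornified envelope, the cross-linked protein shell that replaces the plasma membrane of a keratinocyte at the end of its differentiation. Transglutaminases join their glutamine and lysine residues to loricrin, involucrin and other envelope proteins, so that SPRR proteins act as bridges between them. Their genes lie together with those of loricrin, involucrin, filaggrin and many S100 proteins in the epidermal differentiation complex, and they are known to be induced in stressed, inflamed and wounded epithelia. Here 4 of them, Sprr1a, Sprr1b, Sprr2a2 and Sprr2a3, were followed in cells of mouse tail skin before wounding, during healing and after repair. They are 4 of the 12 SPRR genes among the 15652 genes of the table and were chosen by their values over these same time points, so that their levels, shares of positive cells and co-expression are given as a description, with no test.

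Female mice of mixed CBA and C57BL/6 background carried Lrig1-EGFP-ires-CreERT2, a tamoxifen-inducible Cre driven by Lrig1, together with the reporter Rosa26-fl/STOP/fl-tdTomato, and all groups were labelled once with topical hydroxytamoxifen on the tail at 6–8 weeks of age. All groups but 0w received a full-thickness punch wound 1 week later, at 7–9 weeks. The tdTomato label marks cells that expressed Lrig1, which marks stem cells of the junctional zone in the upper hair follicle (HF), and their progeny (Lrig1 genetically labelled, GL, cells), so that cells of other origins in the same skin were not collected. Labelled epidermal cells were sorted singly from labelled, unwounded skin (0w), 1 week after a first wound (1w pw1), 8 weeks after it, when the skin had healed (8w pw1), and 1 week after a second wound made at week 8 (1w pw2, week 9), from an area that took in both the wound bed and distal HFs, and were sequenced full length. Each time point held 2 plates and 168 to 179 cells, 696 cells in all. The mice on each plate are not named and each time point carries its own replicate letter, so that the 2 plates measure a spread that may be technical and a letter and its time point cannot be told apart.

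The genes lie on mouse chromosome 3 (GRCm38). Sprr1a (chr3:92483952-92485895) and Sprr1b (chr3:92436809-92438789) lie on the minus strand and each is transcribed from 2 exons, whereas Sprr2a2 (chr3:92215920-92256724) and Sprr2a3 (chr3:92285417-92291405) lie on the plus strand, and the annotated span of Sprr2a2 overlaps that of Sprr2a1 (chr3:92215799-92221911). Proline codons made up 31.9% of the Sprr1a codons, 30.7% of those of Sprr1b and 31.3% of those of Sprr2a2 and Sprr2a3. Sprr1a and Sprr1b are built around a 12-base core that codes for proline, glutamate, proline and cysteine, which occurred 11 times in Sprr1a and 13 times in Sprr1b, mostly at steps of 24 bases, but only once in Sprr2a2 and Sprr2a3. A stretch of 216 bases of each coding sequence, from GENCODE, is shown to make this repeat visible, with the cores in capitals (Sprr1a coding bases 109 to 324, Sprr1b coding bases 64 to 279).
Sprr1a: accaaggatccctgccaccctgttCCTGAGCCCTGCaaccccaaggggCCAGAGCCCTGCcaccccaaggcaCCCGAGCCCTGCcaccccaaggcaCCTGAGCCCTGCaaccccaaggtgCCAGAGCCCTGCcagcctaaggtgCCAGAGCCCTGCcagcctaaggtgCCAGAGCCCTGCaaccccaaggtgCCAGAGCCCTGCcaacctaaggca
Sprr1b: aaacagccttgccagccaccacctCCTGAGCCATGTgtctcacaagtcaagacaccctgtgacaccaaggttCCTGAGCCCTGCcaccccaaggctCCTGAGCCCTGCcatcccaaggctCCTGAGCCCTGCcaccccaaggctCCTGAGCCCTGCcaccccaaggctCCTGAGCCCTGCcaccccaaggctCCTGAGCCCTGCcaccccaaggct

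Sprr1a and Sprr1b were identical at 79.0% of aligned coding positions and shared no stretch of 75 bases, the read length, with another gene. Sprr2a2 and Sprr2a3 differed at 3 of 252 coding bases, G63A, G159T and A192T (the base of Sprr2a2, the position counted from the A of the start codon, then the base of Sprr2a3), each of them the third base of a proline codon in both genes. The coding sequence of Sprr2a1 was identical to that of Sprr2a2 over all 252 bases. The sequences are given whole because the difference between these rows of the table rests on so few bases, with the differing bases in capitals.
Sprr2a2: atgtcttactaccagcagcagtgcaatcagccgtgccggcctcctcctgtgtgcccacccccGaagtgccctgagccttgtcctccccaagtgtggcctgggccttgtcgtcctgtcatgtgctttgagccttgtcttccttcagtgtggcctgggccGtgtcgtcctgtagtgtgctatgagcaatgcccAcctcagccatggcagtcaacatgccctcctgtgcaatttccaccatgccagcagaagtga
Sprr2a3: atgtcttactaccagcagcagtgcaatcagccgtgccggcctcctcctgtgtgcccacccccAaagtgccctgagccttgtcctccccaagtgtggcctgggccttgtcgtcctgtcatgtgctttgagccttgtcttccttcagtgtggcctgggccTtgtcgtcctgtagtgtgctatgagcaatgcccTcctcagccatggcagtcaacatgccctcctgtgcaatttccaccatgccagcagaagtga

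Of all 75-base windows of the Sprr2a2 transcripts, 94.6% of the longer and 100% of the shorter were also found in Sprr2a1 or Sprr2a3. For the Sprr2a3 transcripts, 47.5% of the longer and 28.9% of the shorter were also found in Sprr2a1 or Sprr2a2. The values of Sprr2a2, Sprr2a3 and Sprr2a1 therefore rest on how the counting software divided reads between near-identical copies and are uncertain one by one. Sprr2a2 took 83.5% to 96.4% of the counts of the 3 copies on the 6 plates after wounding. Values for the 3 copies together are given where they change a direction.

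The plates held 79 to 91 cells with 12293182 to 19760820 counts each and a median of 64980 to 256588 counts per cell, and replicate plates correlated at Pearson r = 0.852 to 0.917 across genes. Basal, suprabasal and upper follicle duct markers were present on every plate, with summed levels of 2212 to 5715 CPM (counts per 1e6 counts of a plate, scaled between plates by TMM) for 6 basal markers, 3200 to 42380 CPM for 6 suprabasal markers and 8002 to 32650 CPM for 5 duct markers. The 3 immune markers in the table (of 6 listed) reached 0.3115 to 31.56 CPM together, 4 fibroblast markers (of 5 listed) 0.5859 to 25.44 CPM and 2 melanocyte markers (of 4 listed) 1.44 to 6.594 CPM. The 3 endothelial markers in the table (of 4 listed) reached 110.1 to 1846 CPM, nearly all of it from Pecam1, and Kdr was at 0 on 6 of 8 plates.

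In unwounded skin only Sprr1a stood clearly above 0. Sprr1a was at 212.2 and 58.31 CPM on the 0w plates, 1524 and 1264 CPM at 1w pw1, 1029 and 295.3 CPM at 8w pw1, and 978.3 and 1266 CPM at 1w pw2. All 6 plates after wounding lay above both 0w plates, the 8w pw1 plates lay below both 1w pw1 plates, and the 1w pw2 plates overlapped with those at 1w pw1 and 8w pw1. The mean level was 10.3 times that at 0w at 1w pw1 (1394 ± 183.8 against 135.3 ± 108.9 CPM, SD, n = 2 plates), 4.89 times at 8w pw1 (662.1 ± 518.7 CPM) and 8.29 times at 1w pw2 (1122 ± 203.3 CPM). These ratios changed when single plates were left out and when every cell was weighted equally. For the 4 SPRR genes, values with every cell weighted equally carry no TMM scaling, so they differ from the plate sums in scaling too. The log2 ratio of 3.36 at 1w pw1 was 4.58 without 0w plate 1, 2.71 without 0w plate 2 and 1.92 with every cell weighted equally, and that of 3.05 at 1w pw2 was 4.27, 2.4 and 1.9. That of 2.29 at 8w pw1 was 1.13 without 8w pw1 plate 1, 1.64 without 0w plate 2 and 3.51 without 0w plate 1. With every cell weighted equally, the mean of the cells' own CPM values was 573.0 and 71.67 at 0w and 1247 and 348.9 at 8w pw1, so that these plates overlapped. At 1w pw1 it was 1306 and 1133, so that the 8w pw1 plates overlapped with those at 1w pw1 as well.

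Sprr1b was all but absent before wounding and after repair. It was at 0 and 0.4315 CPM at 0w, where 1 cell held all of its 8 counts, at 433.9 and 503.0 CPM at 1w pw1, at 1.296 and 0.1305 CPM at 8w pw1 (20 counts), and at 398.9 and 316.2 CPM at 1w pw2. Each plate 1 week after a wound lay above every plate at 0w and 8w pw1, the 0w and 8w pw1 plates overlapped, and both 1w pw2 plates lay below both 1w pw1 plates. The mean at 1w pw1 was 468.4 ± 48.86 CPM and that at 1w pw2 was 357.6 ± 58.53 CPM (SD, n = 2), a ratio of 0.763 or a log2 ratio of -0.39. With every cell weighted equally the plates of both overlapped, at 310.2 and 370.9 CPM for 1w pw1 and 399.9 and 245.2 CPM for 1w pw2 (log2 -0.08). Without the top cell of each plate the log2 ratio was -1.2, since 1 cell held 74.3% of the Sprr1b counts on 1w pw2 plate 1. The ratio of 1w pw1 to 0w was 2170, with a counting interval of 1130 to 5150, and that of 1w pw2 to 0w was 1660 (844 to 3860). Their log2 values of 11.08 and 10.69 were 10.08 and 9.69 without 0w plate 1. Without 0w plate 2 no count was left at 0w, so 11.55 and 11.16 there are lower bounds from a floor of 3 counts. With every cell weighted equally the log2 values were 8.89 and 8.81, which lies below the counting intervals. Such intervals cover counting error only, since reads amplified by PCR without molecular identifiers are not independent molecules.

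Sprr2a2 showed the widest span between time points. It stood at 0.2077 and 0.2697 CPM on the 0w plates (9 counts), 2342 and 2256 CPM at 1w pw1, 223.2 and 12.26 CPM at 8w pw1, and 1641 and 3643 CPM at 1w pw2. All 6 plates after wounding lay above both 0w plates, the 8w pw1 plates lay between those of 0w and of both healing time points, and the 1w pw2 plates lay on either side of the 1w pw1 plates. The ratio to 0w was 9630 (counting interval 5080 to 21100) at 1w pw1 and 11100 (6130 to 25500) at 1w pw2. Their log2 values of 13.23 and 13.43 were 11.51 and 12.09 with every cell weighted equally, which lies below the counting intervals, and the latter was 12.75 without 1w pw2 plate 2. At 8w pw1 the ratio to 0w was 493 (249 to 1030), a log2 ratio of 8.95, which was 5.68 without 8w pw1 plate 1, where 1 cell held 76.9% of the counts, and 4.98 with a stricter filter on cells. The 1w pw2 mean was 1.15 times that at 1w pw1 (2642 ± 1416 against 2299 ± 61.02 CPM, SD, n = 2), within the spread of the 1w pw2 plates.

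Sprr2a3 was also near 0 before wounding, and its mean was highest at 1w pw1. It was at 0.05192 and 0.05394 CPM at 0w (1 count on each plate), 149.8 and 429.5 CPM at 1w pw1, 5.976 and 0.4566 CPM at 8w pw1 (90 counts), and 37.8 and 137.8 CPM at 1w pw2. In plate sums the groups did not overlap between any pair of time points. With every cell weighted equally the plates at 1w pw1 (75.0 and 231.4 CPM) and 1w pw2 (43.71 and 188.9 CPM) did overlap. With 2 counts at 0w, the ratio was 5470 at 1w pw1 with a counting interval of 1550 to 46400, and 60.8 at 8w pw1 (15.7 to 488). The log2 ratio at 8w pw1, 5.93, was 3.11 without 8w pw1 plate 1 and 0.49 with a stricter filter on cells, and that at 1w pw1, 12.42, was 11.47 without 1w pw1 plate 2. The 1w pw2 mean was 0.303 times that at 1w pw1 (87.8 ± 70.71 against 289.6 ± 197.8 CPM, SD, n = 2), a log2 ratio of -1.72, but the 3 Sprr2a copies summed gave 0.09, so that no lower level of Sprr2a transcripts as a whole was seen at 1w pw2. The log2 ratio of Sprr2a3 was -0.4 with every cell weighted equally, -0.77 without 1w pw1 plate 2, -2.94 without 1w pw2 plate 2 and -1.07 without 1w pw2 plate 1.

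**Figure D1:**
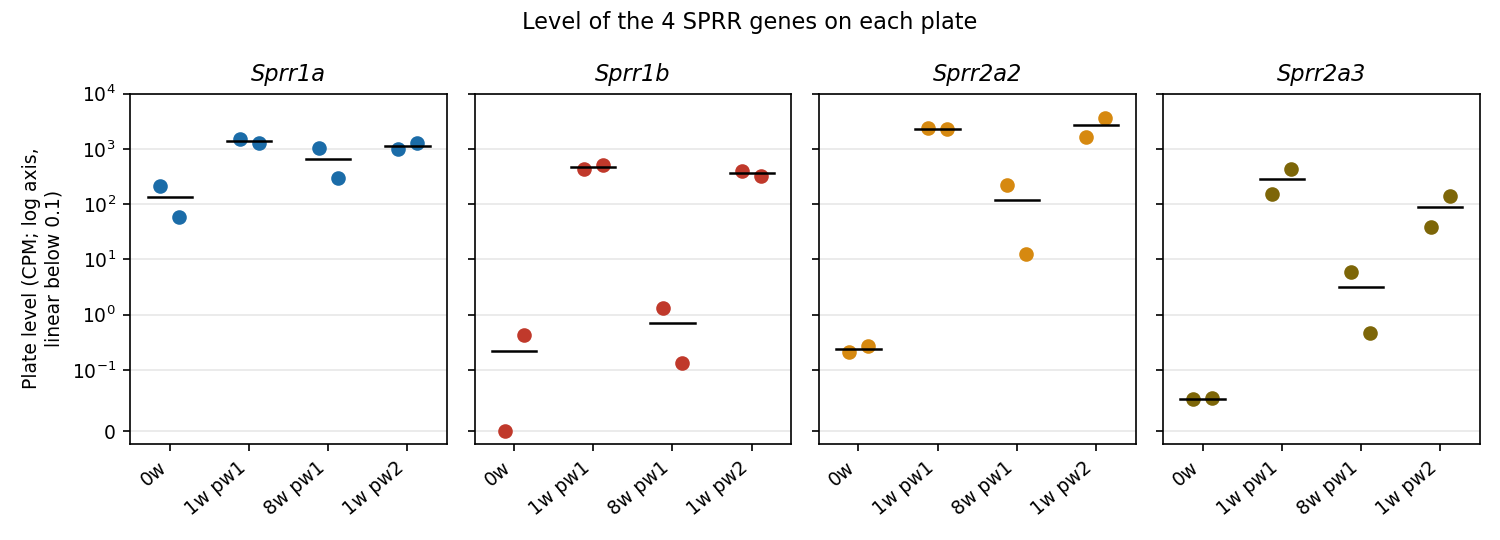
Level of each gene on each plate in CPM (log axis, linear below 0.1), with plates as points and the mean of the 2 plates of a time point as a bar. At 0w Sprr1a lies at 58.31 CPM or above and the other 3 genes at 0.4315 CPM or below, and at 1w pw1 and 1w pw2 all plates of all 4 genes lie at 37.8 CPM or above.

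Summed, the 4 genes stood at 212.5 and 59.07 CPM at 0w, 4449 and 4452 CPM at 1w pw1, 1259 and 308.2 CPM at 8w pw1, and 3056 and 5363 CPM at 1w pw2. They took 0.0246% and 0.00587% of all counts on the 0w plates, 0.36% and 0.385% at 1w pw1, 0.142% and 0.0303% at 8w pw1, and 0.337% and 0.543% at 1w pw2. Sums of cells do not separate more cells that hold a gene from more RNA per cell. The log2 ratio of the sum to 0w was 5.03 for 1w pw1, 2.53 for 8w pw1 and 4.95 for 1w pw2, and it was 3.33, 1.57 and 3.6 when every cell was weighted equally. These ratios leaned on single plates. Without 0w plate 1 they were 6.24, 3.73 and 6.16, and without 0w plate 2 they were 4.39, 1.88 and 4.31. That of 8w pw1 was 1.18 without its plate 1 and 3.21 without its plate 2. The make-up of the sum differed between time points. Sprr1a gave 98.7% to 99.9% of its counts at 0w and 81.7% to 95.8% at 8w pw1, but 28.4% to 34.2% at 1w pw1 and 23.6% to 32% at 1w pw2, where Sprr2a2 gave 50.7% to 67.9%.

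These shares compare counts, not levels per length. Per kilobase of transcript at 1w pw1, Sprr1a stood at 1730 CPM per kb (806 bases) and Sprr1b at 564 CPM per kb (830 bases). Sprr2a2 stood at 802 CPM per kb with its transcript of 2867 bases and at 3180 CPM per kb with that of 722 bases, while Sprr2a3 stood at 425 CPM per kb with its transcript of 682 bases and at 52.0 and 149 CPM per kb on the 2 plates with that of 2880 bases. The order of Sprr1a and Sprr2a2 per length therefore depends on the transcript taken, whereas Sprr1b lay below Sprr1a.

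Positive cells, with at least 1 count, gave the same contrast between Sprr1a and the other 3 genes. Sprr1a was found in 19.3% and 16.5% of cells at 0w, 50.6% and 55.7% at 1w pw1, 25.9% and 18.4% at 8w pw1, and 53.5% and 54.9% at 1w pw2. The 0w and 8w pw1 plates overlapped, and all plates 1 week after a wound lay well above them. Pooled over plates, the share was 17.9% at 0w (32 of 179 cells, exact 95% interval 12.6% to 24.3%) and 53.0% at 1w pw1 (89 of 168, 45.1% to 60.7%).

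Sprr1b was found in 0 of 88 cells on 1 plate at 0w, which allows a share of up to 3.41% by a limit of 3 counts and 4.11% by the exact 95% interval, and in 1.1% of cells on the other, against 33.7% and 40.5% at 1w pw1, 2.35% and 1.15% at 8w pw1, and 22.1% and 29.7% at 1w pw2. Sprr2a2 was found in 2.27% and 3.3% of cells at 0w, 43.8% and 41.8% at 1w pw1, 9.41% and 12.6% at 8w pw1, and 39.5% and 39.6% at 1w pw2. The 8w pw1 share of Sprr2a2 lay above both 0w plates and was 11% over both plates (19 of 172 cells, exact 95% interval 6.78% to 16.7%), against 2.79% at 0w (5 of 179, 0.913% to 6.4%). Sprr2a3 was found in 1.14% and 1.1% of cells at 0w, 24.7% and 22.8% at 1w pw1, 2.35% and 2.3% at 8w pw1, and 26.7% and 20.9% at 1w pw2.

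Positive cells were mostly deeper than the others. The exceptions were Sprr2a2 at 8w pw1, with a median depth of 93268 against 96662 counts, and the single Sprr1b cell at 0w, with 61276 against 129423. At 1w pw1 the median depth was 248730 counts in Sprr2a2-positive cells and 169875 in the others, and at 0w it was 150615 counts in Sprr1a-positive cells and 126679 in the others. Thinned to 20000 counts per cell, with 1 to 14 shallower cells left out per plate, Sprr1a was found in 14% and 14.8% of cells at 0w and in 40% and 50% at 1w pw1. It was in 24.7% and 15.1% at 8w pw1 and 47% and 45.8% at 1w pw2. The thinned 8w pw1 shares of Sprr1a thus lay above those at 0w, on plate 2 only just. Sprr2a2 was then found in 0% and 0% at 0w, 37.5% and 32.1% at 1w pw1, 8.64% and 11% at 8w pw1, and 34.9% and 30.1% at 1w pw2, so that the order of the time points stayed. With at least 10 counts, Sprr2a2 was found in 0% of cells on either 0w plate and in 5.88% and 4.6% at 8w pw1.

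**Figure D2:**
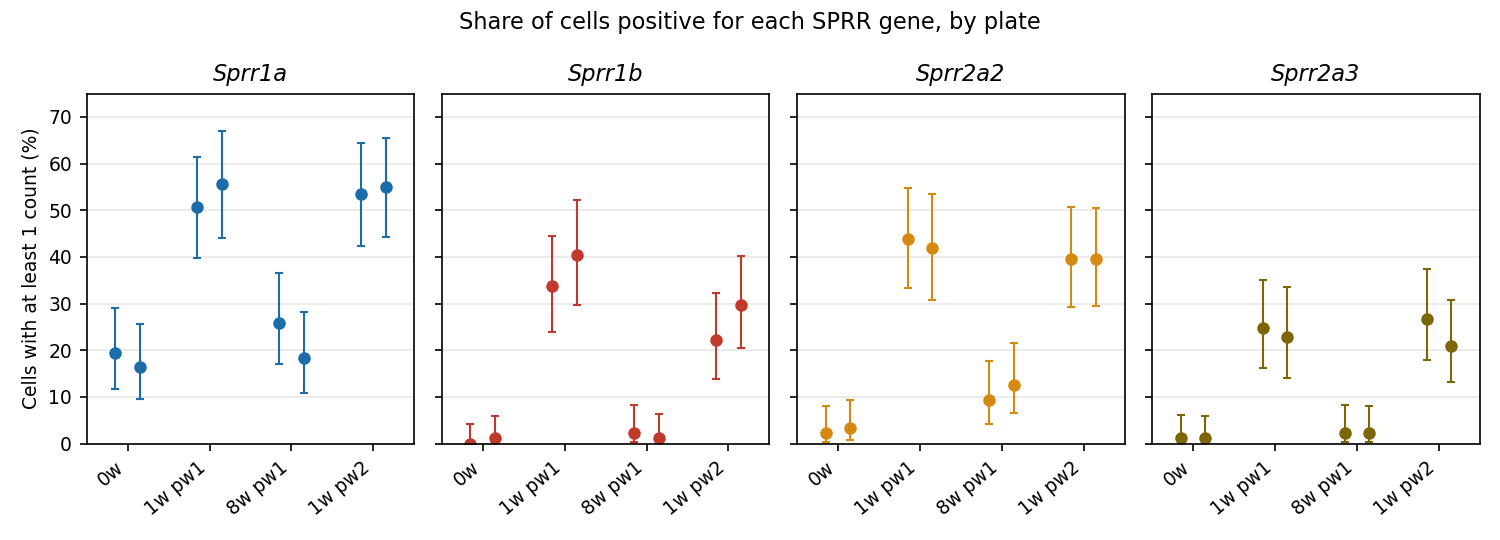
Share of cells with at least 1 count of each gene, as a percentage of the cells of a plate, with plates as points and exact 95% intervals for counting error as lines. Sprr1a is in 16.5% to 25.9% of cells at 0w and 8w pw1 and in 50.6% to 55.7% 1 week after either wound, while Sprr1b and Sprr2a3 are in 0% to 2.35% of cells at 0w and 8w pw1.

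A few cells carried much of each sum. The top cell of a plate held 31.2% to 55.6% of its Sprr1a counts, and at 1w pw1 and 1w pw2 it held 26.7% to 74.3% of the Sprr1b counts and 22.6% to 63.2% of the Sprr2a2 counts. The highest single cells, both at 1w pw2, gave 5.71% of all their counts to Sprr1a and 6.68% to Sprr2a2. The median positive cell was far lower. For Sprr1a it stood at 278 and 264 CPM at 0w, 594 and 411 CPM at 1w pw1, 788 and 270 CPM at 8w pw1, and 357 and 201 CPM at 1w pw2. Only the 1w pw1 plates lay apart from those at 0w, with both above. For Sprr2a2 it stood at 40.4 and 4.68 CPM in the 5 positive cells at 0w, 716 and 202 CPM at 1w pw1, 85.7 and 73.1 CPM at 8w pw1, and 521 and 412 CPM at 1w pw2.

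At least 1 of the 4 genes was found in 38 of 179 cells at 0w (21.2%), 128 of 168 at 1w pw1 (76.2%), 56 of 172 at 8w pw1 (32.6%) and 135 of 177 at 1w pw2 (76.3%). All 4 were found together in 12 cells of 1w pw1 and 13 of 1w pw2, but in none at 0w or 8w pw1. Cells were then divided by the genes they held, which is a description of cells and not a cell type. Cells with Sprr1a and none of the other 3 made up 18.2% and 15.4% of cells at 0w, 23.6% and 24.1% at 1w pw1, 24.7% and 16.1% at 8w pw1, and 27.9% and 19.8% at 1w pw2, with overlap between most time points. Cells with Sprr1a beside any of the other 3 made up 1.14% and 1.1% at 0w and 1.18% and 2.3% at 8w pw1, but 27% and 31.6% at 1w pw1 and 25.6% and 35.2% at 1w pw2. Cells with any of the other 3 but not Sprr1a made up 2.27% and 4.4% at 0w, 24.7% and 21.5% at 1w pw1, 9.41% and 11.5% at 8w pw1, and 26.7% and 17.6% at 1w pw2. The higher share of Sprr1a-positive cells 1 week after a wound thus lay mainly in cells that also held Sprr1b, Sprr2a2 or Sprr2a3.

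**Figure D3:**
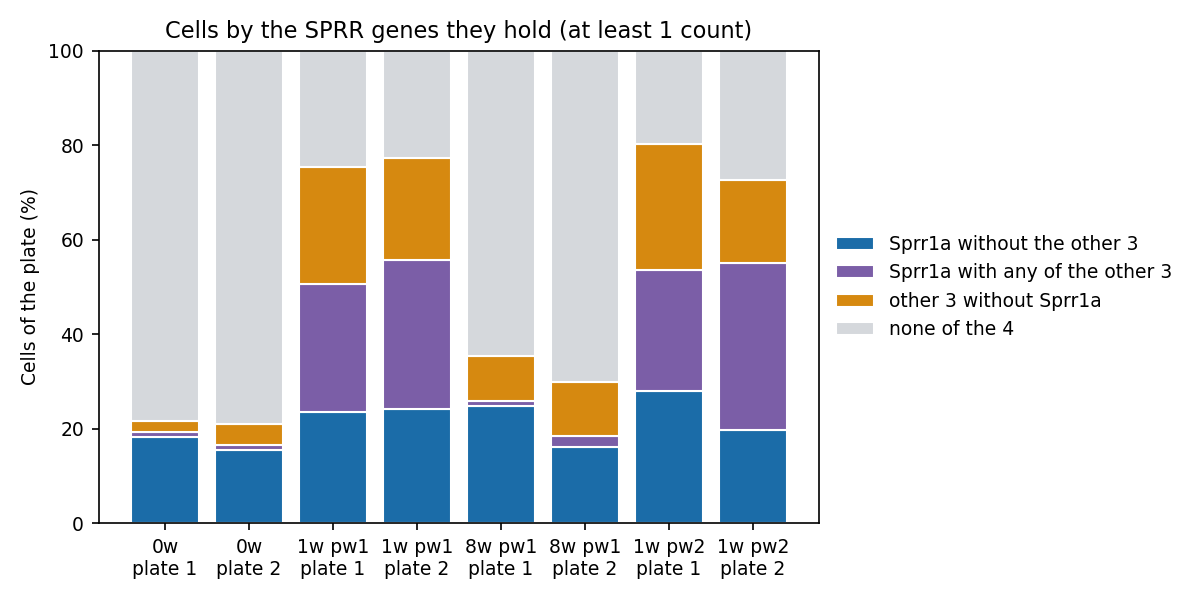
Cells of each plate, in percent, by whether they hold Sprr1a, any of Sprr1b, Sprr2a2 and Sprr2a3, both or none, at 1 count or more. The segment of Sprr1a without the other 3 lies between 15.4% and 27.9% on all 8 plates, whereas the other 2 coloured segments are small at 0w and 8w pw1 and wide at 1w pw1 and 1w pw2.

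Within the healing time points, Sprr1b, Sprr2a2 and Sprr2a3 were often found in the same cells. At 1w pw1, 48 of the 62 Sprr1b-positive cells also held Sprr2a2 (77.4%) and 35 of the 40 Sprr2a3-positive cells did (87.5%), whereas 35 of the 89 Sprr1a-positive cells held it (39.3%). Of the Sprr1b-positive cells, 61.3% held Sprr1a at 1w pw1 and 65.2% at 1w pw2, where 53.0% and 54.2% of all cells did. Spearman's rho over the 168 cells at 1w pw1 was 0.583 for Sprr1b with Sprr2a2, 0.673 for Sprr2a2 with Sprr2a3, and -0.221 for Sprr1a with Sprr2a2. At 1w pw2 it was 0.414, 0.637 and 0.0146 over 177 cells. The cells of a plate share their library preparation and differ in depth, and the rows of Sprr2a2 and Sprr2a3 can share reads, so these values are a description. By plate, Sprr1b with Sprr2a2 ran from 0.392 to 0.613, while Sprr1a with Sprr2a2 was -0.269 and -0.162 at 1w pw1 but -0.156 and 0.189 at 1w pw2. On the latter plate, 1w pw2 plate 2, Sprr1a also gave 0.117 with Sprr1b and 0.223 with Sprr2a3. In thinned cells Sprr1a with Sprr2a2 gave -0.33 at 1w pw1 and -0.06 at 1w pw2, while Sprr1b with Sprr2a2 gave 0.486 and 0.407.

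The cells that held Sprr1a alone carried genes of the upper follicle duct at every time point. At 0w, 83.3% of these 30 cells held at least 10 counts of Krt79, a keratin of the upper follicle and sebaceous duct, 93.3% of Defb6, a defensin, and 96.7% of Cst6, a protease inhibitor of the cornified layer, and 93.3% held the suprabasal keratin Krt10. Of the 141 cells at 0w with none of the 4 genes, 22.0% held Krt79 and 75.2% held the basal keratin Krt5, against 13.3% of the Sprr1a cells. Among cells with none of the 4 genes the share with Krt79 at 1w pw1 was 55%, that at 8w pw1 was 26.7% and that at 1w pw2 was 42.9%, so that the contrast was narrower at the healing time points. At 1w pw1 Krt79 was in 92.5% of 40 cells with Sprr1a alone and Gata6, a transcription factor of the duct, in 47.5%, and Krt79 was in 91.4% of 35 such cells at 8w pw1 and 76.2% of 42 at 1w pw2. Klk7, a protease of the granular layer, was found with Sprr1a in 91.7% to 100% of its cells on the 5 plates with at least 10 Klk7 cells, and in 8 of 8 and 9 of 9 at 0w.

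The cells that held Sprr1b, Sprr2a2 or Sprr2a3 without Sprr1a had another set of markers. At 1w pw1, 71.8% of these 39 cells held Stfa1, a cysteine protease inhibitor of the stefin A cluster, 59.0% held the alarmin S100a8, 51.3% held the stress keratin Krt6b and 53.8% held Krt16. Krt5 was in 53.8% and Krt10 in 76.9% of them, while Krt79 was in 2.56% and Gata6 in none. The same 4 wound markers were in 0% to 2.5% of the cells with Sprr1a alone. The other 2 wound-activated keratins differed less, since Krt6a was in 66.7% of these cells and in 30% of those with Sprr1a alone, and Krt17, which the follicle also expresses, was in 56.4% and 90%. At 1w pw2 Stfa1 was in 43.6% of 39 such cells, S100a8 in 38.5% and Krt6b in 7.69%, and Krt79 in 12.8%. At 1w pw1 the 49 cells with both kinds of SPRR gene lay between, with Krt79 in 46.9%, Stfa1 in 61.2%, Krt6b in 30.6% and S100a8 in 34.7%. At 1w pw2 the 54 such cells lay between for Krt79 (59.3%) and Stfa1 (33.3%), but above both other sets for Krt6b (24.1%), Krt16 (53.7%) and S100a8 (46.3%). A cutoff of 10 counts favours deeper cells, and no test was made between these sets of cells.

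**Figure D4:**
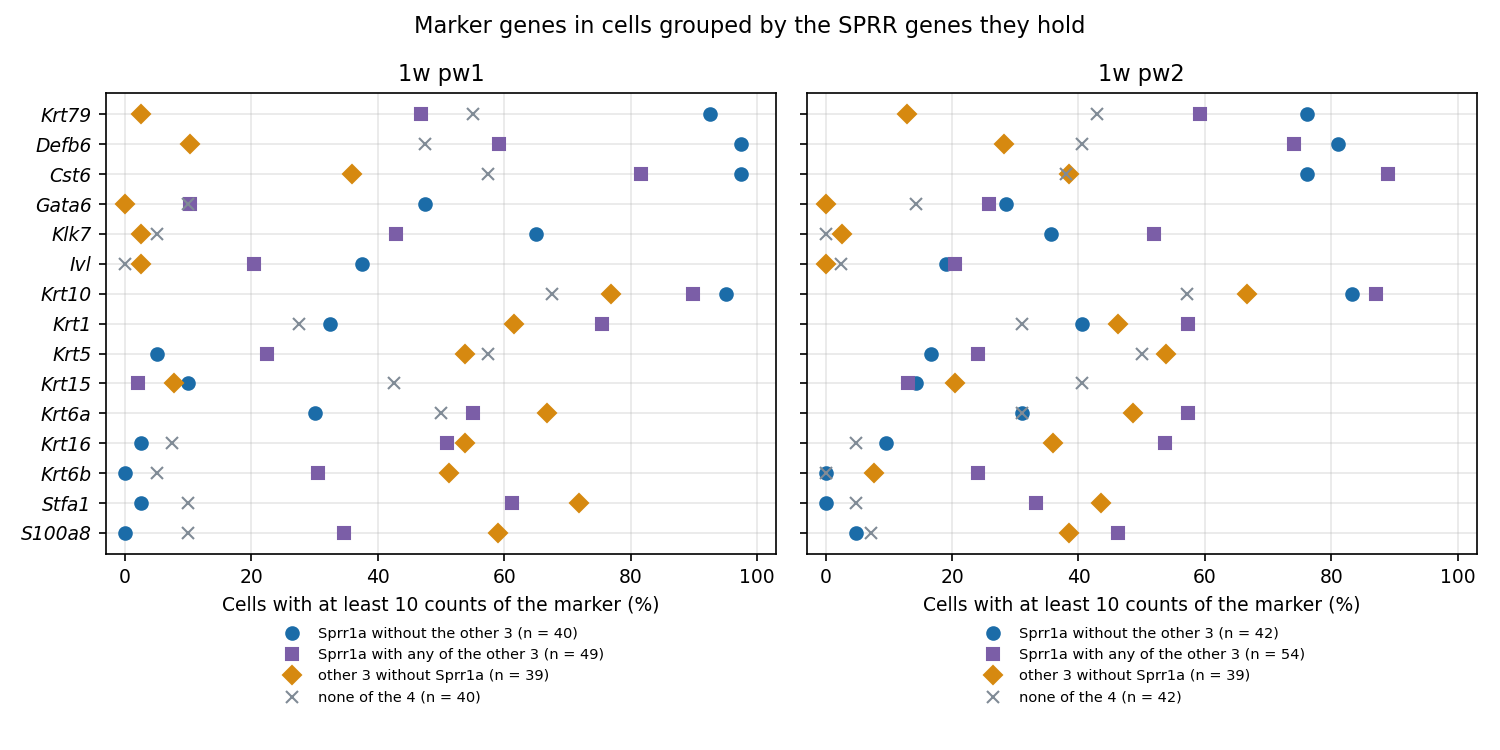
Share of cells with at least 10 counts of each marker gene, in percent, at 1w pw1 and 1w pw2, in cells divided by the SPRR genes they hold (symbols, with cell numbers in the key). Krt79 and Defb6 are high in cells with Sprr1a alone (92.5% and 97.5% at 1w pw1). They are low in cells with the other 3 genes alone (2.56% and 10.3% at 1w pw1). At 1w pw1 Krt6b, Stfa1 and S100a8 are the reverse. At 1w pw2 Krt6b is in 7.69% of cells with the other 3 genes alone and in 24.1% of cells with both kinds.

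Read the other way, the share of Sprr-positive cells among cells with at least 10 counts of a marker also differed between time points. Of the Krt5 cells, 0% and 5.88% held Sprr2a2 at 0w, 53.3% and 51.9% at 1w pw1, 12.2% and 14.9% at 8w pw1, and 50% and 46.4% at 1w pw2. Of the Krt79 cells, 52.2% and 37.1% held Sprr1a at 0w, 71.4% and 73.2% at 1w pw1, 57.1% and 43.3% at 8w pw1, and 74.5% and 72.5% at 1w pw2. Krt6b, which reached 10 counts in no cell at 0w or 8w pw1, was found with Sprr2a2 in 85.0% and 94.1% of its 20 and 17 cells at 1w pw1, and in 7 of 8 and 8 of 8 at 1w pw2.

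The make-up of the plates differed between time points as well. Cells with at least 10 counts of Krt10 made up 45.5% and 39.6% at 0w, 79.8% and 86.1% at 1w pw1, 43.5% and 39.1% at 8w pw1, and 72.1% and 76.9% at 1w pw2. The 6 suprabasal markers summed to 3200 and 3951 CPM at 0w, 42380 and 40700 CPM at 1w pw1, 6854 and 5893 CPM at 8w pw1, and 16690 and 27410 CPM at 1w pw2. At 1w pw2 they thus lay below both 1w pw1 plates, where the summed SPRR genes overlapped (log2 -0.08). The 5 duct markers summed to 8002 and 13700 CPM at 0w and to 14640 to 32650 CPM on all 6 later plates, and the 7 sebaceous gland markers to 906.2 to 7705 CPM at 0w and 8w pw1 and 584.1 to 857.2 CPM on the 4 plates of the healing time points. The 6 wound-activated markers summed to 413 and 1013 CPM at 0w, 12050 and 28700 CPM at 1w pw1, 1248 and 1799 CPM at 8w pw1, and 5578 and 6124 CPM at 1w pw2, with Krt6b and Stfa1 at 0 on both 0w plates. Krt17 is among both the duct and the wound-activated markers, so these sums are not separate measures. The 6 granular markers differed less, from 93.1 and 327 CPM at 0w to 495.4 and 693.8 CPM at 1w pw1. The 3 markers of tail scale epidermis summed to 18.48 and 6.203 CPM at 0w, 591.7 and 366 CPM at 1w pw1, 234.6 and 93.61 CPM at 8w pw1, and 445.1 and 1978 CPM at 1w pw2. The 6 bulge markers summed to 1382 and 547.9 CPM at 0w, 149.4 and 224.1 CPM at 1w pw1, 820.6 and 410.8 CPM at 8w pw1, and 191.8 and 382.3 CPM at 1w pw2. The median share of mitochondrial counts, a sign of RNA quality, was 22.7% and 30.7% at 0w, 17.9% and 23.9% at 1w pw1, 18.2% and 22.1% at 8w pw1, and 14.3% and 13% at 1w pw2. A stricter filter on cells kept 50 and 21 cells at 0w but 67 and 67 at 1w pw2. Their part in the SPRR levels was not tested.

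The genes with the pattern most like each SPRR gene were ranked without the SPRR family. Over all 696 cells, the genes nearest to Sprr1a by Spearman's rho were Ly6g6c (0.705), Teddm3 (0.696), Klk7 (0.691), Cst6 (0.677) and Defb6 (0.614), among 9966 genes found in at least 10% of cells. Those nearest to Sprr1b were Stfa1 (0.632), Tdh (0.602), Cstdc5 (0.59), Cstdc6 (0.575) and Csta1 (0.571), and those nearest to Sprr2a2 were Cstdc5 (0.675), Stfa1 (0.618), S100a8 (0.577), Stfa3 (0.561) and Csta1 (0.552). Sprr2a3 was nearest to S100a8 (0.578), S100a9 (0.574), Cstdc5 (0.54), Cstdc6 (0.539) and Krt6b (0.518). Over cells, Sprr1a thus shared none of its 5 nearest genes with the other 3, which shared stefin A and cystatin genes among them. The cells share plates and depth and pool all time points, and the other 3 genes were found mostly 1 week after a wound. Genes high at those time points can thus rank near them whatever their overlap within a time point. Whether reads are divided between the rows of Stfa and Cstdc genes was not tested.

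Over the 8 plates, Pearson's r of log2(CPM + 1) among 5902 genes with a mean of at least 16 CPM was highest with Slc46a2 (0.984), Mt4 (0.979), Cstdc5 (0.965), Ugcg (0.958) and Ttll7 (0.953) for Sprr1a, and with Calm4 (0.977), Serpinb1a (0.968), P4hb (0.963), Dsp (0.963) and Cstdc6 (0.961) for Sprr1b. For Sprr2a2 the genes were Endou (0.993), Sars (0.985), Stfa1 (0.984), Susd2 (0.967) and Dsg1a (0.967), and for Sprr2a3 they were Casp14 (0.997), Serpinb12 (0.994), Tdh (0.986), Olah (0.98) and Dsp (0.979). The 8 plates are pairs from 4 time points, so these values mostly order genes by their time point means.

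The upstream sequences of the genes differed as well. Windows of 250 bases before the start site, from RefSeq (GRCm38.p6), were searched on both strands for 4 motifs: the AP-1 motif TGANTCA, present in 6.75% of 32851 mouse promoter windows, TATAAA in 12.4%, AGGAAG of ETS factors in 29.5%, and GGGNGTG of KLF factors in 26.1%. The AP-1 motif was in 9 of 14 SPRR windows, TATAAA in 10, AGGAAG in 7 and GGGNGTG in none. Sprr1a held the AP-1 motif at positions -146 and -116 and Sprr1b at -111, with TATAAA at -43 and -30, whereas Sprr2a2 and Sprr2a3 held neither in this window. The windows of Sprr2a1 and Sprr2a2 were identical, and Sprr2a3 shared a run of 222 bases with them. The 3 windows are printed to set these side by side, in the direction of transcription, with the AP-1 and TATAAA motifs in capitals (Sprr1a chr3:92485882-92486131, minus strand, Sprr1b chr3:92438780-92439029, minus strand, and Sprr2a2 chr3:92250397-92250646, plus strand). A match describes letters in this window and not a bound site, and the start of Sprr2a2 differs between RefSeq and GENCODE.
Sprr1a upstream: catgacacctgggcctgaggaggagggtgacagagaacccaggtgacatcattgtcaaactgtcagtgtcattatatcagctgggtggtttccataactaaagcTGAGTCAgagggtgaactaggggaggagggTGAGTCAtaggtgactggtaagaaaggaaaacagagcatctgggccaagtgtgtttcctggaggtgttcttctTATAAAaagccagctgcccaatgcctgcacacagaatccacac
Sprr1b upstream: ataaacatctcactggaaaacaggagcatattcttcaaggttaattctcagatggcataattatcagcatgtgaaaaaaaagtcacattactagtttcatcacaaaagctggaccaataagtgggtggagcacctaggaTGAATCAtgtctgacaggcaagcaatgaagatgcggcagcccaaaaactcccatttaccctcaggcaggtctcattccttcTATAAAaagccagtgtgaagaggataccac
Sprr2a2 upstream: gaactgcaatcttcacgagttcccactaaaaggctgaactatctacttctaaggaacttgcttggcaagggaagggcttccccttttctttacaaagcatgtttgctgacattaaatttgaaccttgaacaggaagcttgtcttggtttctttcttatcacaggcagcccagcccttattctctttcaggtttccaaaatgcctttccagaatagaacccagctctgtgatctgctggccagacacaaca

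Other genes of the cornified envelope were tested with edgeR's quasi-likelihood test on the plate sums, and a gene was called where its fold change exceeded 2 and its p, adjusted by Benjamini-Hochberg, lay below 0.05. Of 68 related genes that passed the filter on low counts, 2 rose at 1w pw1 against 0w and none fell, where 0.527% of all 13853 genes tested were called (73 genes). Sprr2h, another SPRR gene, was at 0 and 0.05394 CPM at 0w, 44.51 and 28.65 CPM at 1w pw1, 0.432 and 0 CPM at 8w pw1, and 9.729 and 7.931 CPM at 1w pw2. It rose at 1w pw1 by a fitted log2 fold change of 10.07 (SE 1.45, adjusted p = 0.0197), which depends on the prior count since 0w held 1 count. With so few counts at 0w it passed the filter through the healing plates and could only be called higher, so its call says nothing of how many related genes rose or fell. The ratio of means was 1360, with a counting interval of 245 to 54000. Casp14, a protease of terminal differentiation that processes filaggrin, was at 2.648 and 2.373 CPM at 0w and 35.89 and 49.22 CPM at 1w pw1, and rose by 4.08 on the log2 scale (SE 0.69, adjusted p = 0.037). Both calls were lost when any 0w or 1w pw1 plate was left out, which leaves 1 plate in a group. The log2 fold changes were then 9.18 to 12.22 for Sprr2h and 3.83 to 4.27 for Casp14. Both calls were also lost when every cell was weighted equally (log2 6.43, adjusted p = 0.0756, and log2 3.78, adjusted p = 0.0548). That of Casp14 was lost with a stricter filter on cells too (log2 3.63, adjusted p = 0.13).

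In the other 5 comparisons no related gene passed the edgeR test, where the share of all genes called was 0% for 8w pw1 against 0w, 0.267% for 1w pw2 against 0w, 0.115% for 8w pw1 against 1w pw1, 0% for 1w pw2 against 1w pw1 and 0.00722% for 1w pw2 against 8w pw1. At an unadjusted p below 0.05, 27 of the 68 genes passed at 1w pw1 against 0w, 15 at 8w pw1 and 30 at 1w pw2, then 21, 5 and 14 in the last 3 comparisons. Of these, 24, 10, 26, 2, 1 and 12 were higher and 3, 5, 4, 19, 4 and 2 lower in the later time point. Against 0w, 5 other SPRR genes and 1 gene each of the enzyme, S100 and late envelope lists could not count as lower. They had no count at 0w, so these directions are given as values only. Over all 13853 genes, 1587, 896, 1739, 1531, 832 and 1100 passed in the same order. DESeq2 called 15, 3, 20, 10, 1 and 6 of 73 related genes in the same order, and 732, 163, 693, 570, 42 and 291 of all 15652 genes. At 1w pw2 against 0w the adjusted p was 0.0581 for Sprr2h (log2 8.02) and 0.12 for Casp14 (log2 3.04). The comparisons to 0w share the 0w plates. These edgeR calls come from a fit without a replicate block. With the plate number as a block, 8 of the 68 genes passed for 1w pw1 over 0w (236 of all 13853). For 1w pw2 over 0w 3 passed (96 of all), and for 8w pw1 over 1w pw1 3 passed (110 of all). Whether plates with the same number share more than that number is not known.

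By group, 7 other SPRR genes were tested (of 12 listed, 8 of them in the table), with 1 call at 1w pw1 and none at 1w pw2. Of these 7, 5 had no count at 0w and passed the filter only through later plates, so that they had no level at 0w to fall from and their fitted fold changes depend on the prior count. The list's median log2 fold change at 1w pw1 was 8.87 as fitted and 5.48 with these genes at the bound that 3 counts over both 0w plates allow, and at 1w pw2 it was 8.02 and 5.09. These medians are given as values only, beside -0.0361 and 0.0535 over all genes. Sprr2a1, the copy of Sprr2a2, was at 0 on both 0w plates, 36.67 and 16.17 CPM at 1w pw1, 2.952 and 0 CPM at 8w pw1, and 26.11 and 66.85 CPM at 1w pw2. It was at least 333-fold higher at 1w pw1 and at least 586-fold higher at 1w pw2 than the level that 3 counts over both 0w plates allow (adjusted p = 0.0721 and 0.0849, not called). Sprr4 was at 3.634 and 0 CPM at 0w, 27.85 and 1.582 CPM at 1w pw1, 11.66 and 0.1305 CPM at 8w pw1 and 9.799 and 5.557 CPM at 1w pw2. Its 1w pw2 plates lay above both 0w plates while the plates of the other pairs of time points overlapped. All 518 counts of Sprr2i at 8w pw1 came from 1 cell of plate 1, a gene named after its values were seen.

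The enzymes and lipid genes of the envelope showed 9 of 10 log2 fold changes above 0 at 1w pw1 (median 2.57, 1 call) and at 1w pw2 (median 2.86, no call). Of the 10 genes, 1 had no count at 0w and so could not fall. The 1w pw1 median was 3.36 without 0w plate 1, 2.27 without 0w plate 2 and 2.1 with every cell weighted equally. That at 1w pw2 was 3.4 without 0w plate 1, 2.23 without 1w pw2 plate 2 and 1.75 with every cell weighted equally. Cers3, a synthase of very long ceramides, was at 2.959 and 6.689 CPM at 0w and 58.96 and 45.17 CPM at 1w pw1 (log2 3.43, adjusted p = 0.0618). Abca12, the lipid transporter of lamellar granules, was at 25.65 and 20.77 CPM at 0w and 108.2 and 136.3 CPM at 1w pw1 (log2 2.40, adjusted p = 0.094). Asprv1, a protease of the granular layer, was at 12.72 and 0.2158 CPM at 0w and 18.17 and 5.273 CPM at 1w pw1, with overlapping plates.

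The 13 envelope precursor and scaffold genes had no call, and their median log2 fold change was 0.706 at 1w pw1 but -1.47 at 8w pw1, while at 1w pw2 it was 0.575. Without 0w plate 1 the 3 medians were 4.61, 2.43 and 3.47, and without 0w plate 2 they were -0.04, -2.42 and 0.45. The 8w pw1 median thus turned without 0w plate 1, and that at 1w pw1 fell just below 0 without 0w plate 2. The 1w pw2 median stayed above 0 in both. Rptn, repetin, was at 207.2 and 0 CPM on the 0w plates and Hrnr, hornerin, at 62.77 and 0 CPM, both named after their values were seen. Krtdap, a secreted protein of differentiating keratinocytes, was at 961.2 and 1196 CPM at 0w and 11640 and 5575 CPM at 1w pw1 (log2 3.0, adjusted p = 0.0534). Ppl, periplakin of the envelope scaffold, was at 122.1 and 104.8 CPM at 0w and 180.3 and 175.1 CPM at 1w pw1 (log2 0.65, adjusted p = 0.624), and Sbsn, suprabasin, had a log2 fold change of 0.73 (adjusted p = 0.64). Of 21 late cornified envelope genes listed, 5 were in the table and 2 were tested, and the levels of Lce1a1, Lce1f and Lce3c were at most 1.242 CPM on all plates but 1w pw2 plate 1, where Lce3c reached 29.19 CPM.

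Among 12 S100 genes of the complex the median log2 fold change was 1.21 at 1w pw1, but -0.04 without 1w pw1 plate 1, and none was called. S100a8, an alarmin subunit, was at 0.5192 and 2.859 CPM at 0w, 12200 and 2635 CPM at 1w pw1, 315.2 and 0.1305 CPM at 8w pw1, and 639.6 and 1088 CPM at 1w pw2 (log2 12.10 at 1w pw1, adjusted p = 0.0945). S100a11, a substrate of transglutaminases, was at 149.1 and 141.9 CPM at 0w and 961.6 and 462.9 CPM at 1w pw1 (log2 2.29, adjusted p = 0.102), and S100a6 had a log2 fold change of 0.95 (adjusted p = 0.738). Of 24 transcription factors of keratinocyte differentiation, 20 had log2 fold changes above 0 at 1w pw1 (median 0.909) and none was called. Klf4, a regulator of barrier formation, was at 82.76 and 135.6 CPM at 0w and 265.1 and 339.4 CPM at 1w pw1 (log2 1.47, adjusted p = 0.325). Fos, a subunit of AP-1, was at 486.5 and 789.7 CPM at 0w, 525.4 and 705.3 CPM at 1w pw1, 141.0 and 199.2 CPM at 8w pw1 and 145.4 and 205.3 CPM at 1w pw2, without a call (adjusted p = 0.616 at 8w pw1 and 0.168 at 1w pw2).

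**Figure D5:**
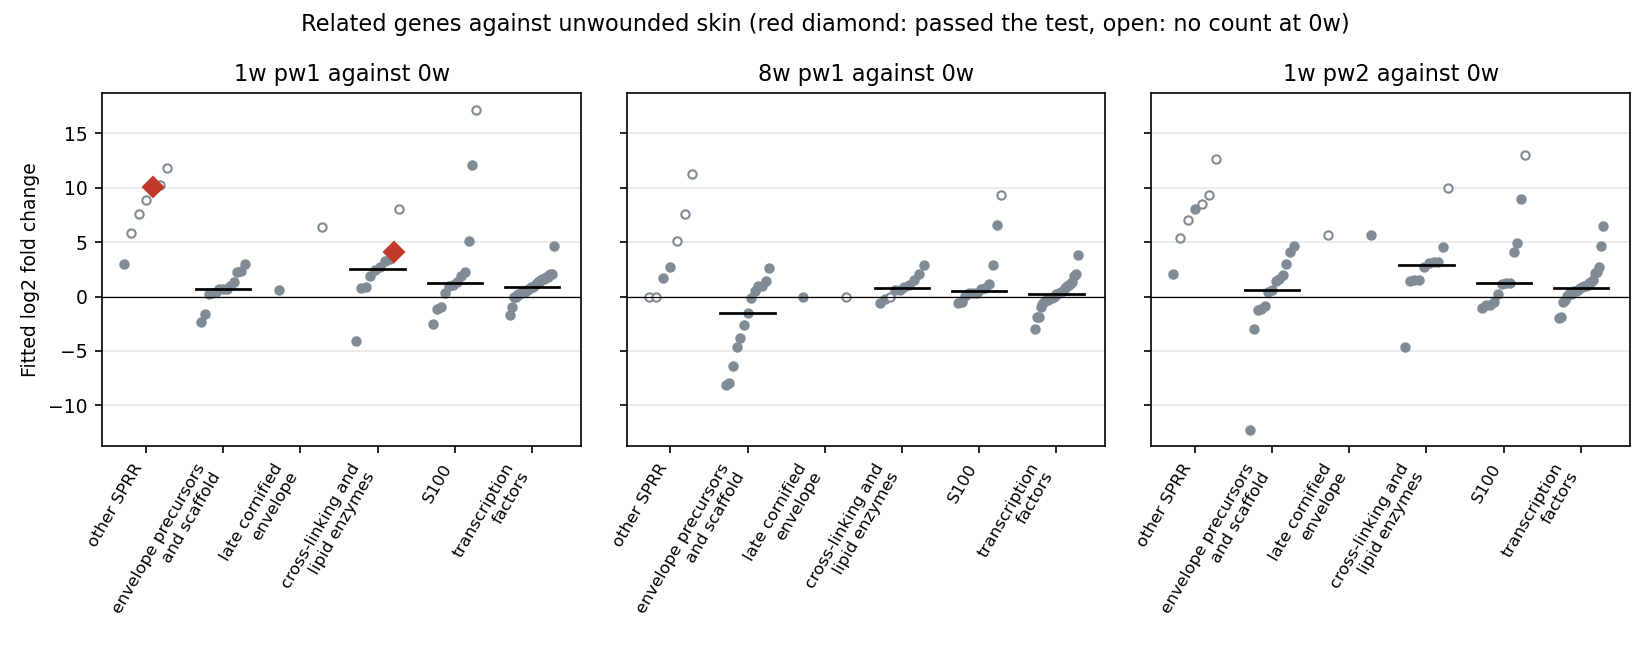
Fitted log2 fold change of each related gene against 0w in 3 panels, one for each later time point, by list, with genes as points, genes without a count at 0w as open points, genes called by edgeR as red diamonds, and medians as bars for lists in which under 50% of the points are open. Of the 7 other SPRR genes 5 are open points, whose height depends on the prior count, and the 2 called genes, Sprr2h and Casp14, are both at 1w pw1.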

How the data were processed

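Single tdTomato+ cells were sequenced by a modified Smart-seq2 protocol without molecular identifiers (single-end, 75 bases). The deposited table holds estimated counts per gene and cell, which the authors made with Salmon 0.13.1 on Ensembl release 101 transcripts (GRCm38). The authors' limits of 1000 detected genes per cell or more and 50% mitochondrial reads or less were met by all 696 cells of the table. Each of the 696 cell columns was matched to a sample by name, with 0 columns left over. The study's methods describe 2 independent experiments of 4 biological replicates, but the labels do not tie mice to plates. Per the study's gating description, doublets were gated out at the sort, and no doublet caller was run here.

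Cells were summed by plate, rounded and scaled by TMM to CPM (counts per 1e6 counts of the plate). Ratios are of plate means. Exact (Clopper-Pearson) 95% intervals cover counting error only, and floors allow 3 counts. Related genes were tested with edgeR 4.0.16 (glmQLFit and glmQLFTest, filterByExpr, all 8 plates in 1 fit, 4 residual degrees of freedom, common biological coefficient of variation 0.61, Benjamini-Hochberg adjustment over 13853 genes), checked on simulated data, with DESeq2 1.42.0 as an alternative, in R 4.3.3. An exact permutation test of 2 plates against 2 cannot go below p = 0.333, so none was used. Depth per cell ran from 3551 to 1895079 counts, so sums lean on deep cells, and an alternative scaled every cell equally. For the 4 SPRR genes it took the mean of the cells' own counts per 1e6 without TMM, while the fit of related genes kept TMM. The members and gene lists were chosen with earlier results of these data known. Named related genes were all those called and the 3 of each list with the highest mean CPM, and likeness names the 5 highest genes. One gene that this rule names is not reported here. Coordinates and coding sequences came from GENCODE M21 and upstream windows from RefSeq GRCm38.p6. No cells were clustered.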

Additional observations from a re-analysis of the deposited data

How the results depend on the processing

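The size of the differences changed with the weight given to each cell. The log2 ratio of the 4 summed genes at 1w pw1 to 0w was 5.03 and 3.33 with every cell scaled equally. Over the alternatives run, all ratios of the sum to 0w kept their direction. Of the values for single genes and shares of cells, 104 were scored as moved by less than the spread between plates, 60 by more, and 4 as reversed. Sprr1b at 8w pw1 against 0w, which rests on 20 and 8 counts, had a log2 ratio of 1.72. It was -0.13 with every cell scaled equally and -0.73 to 2.59 with a plate left out (-0.73 without 8w pw1 plate 1). Without the top cell of each plate 0w held no Sprr1b count and was set to the floor of 3 counts. The value of -1.12 there, scored as reversed, is thus not a measured ratio. Sprr2a3 at 1w pw2 against 1w pw1 (-1.72) was 0.09 with the Sprr2a copies summed. Within the plates' spread, Sprr2a2 at 1w pw2 against 1w pw1 (0.2) also changed sign, to -0.39 with stricter cells and -0.49 without 1w pw2 plate 2, and the sum in that comparison (-0.08) to 0.28 with every cell scaled equally, 0.14 without the top cells and 0.27 without 1w pw2 plate 1. The cause was not tested in any of these.

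The number of related genes called changed with several choices. At 1w pw1 against 0w it was 2, and it was 15 with DESeq2, 1 with every cell scaled equally, 4 with a stricter filter on cells (2000 genes or more, mitochondrial counts of 25% or less, 400 cells), 6 with only the plates compared, and 0 to 5 with a plate left out. Over all genes, the calls there were 55 of 14116 with every cell scaled equally, 32 of 13038 with stricter cells and 126 of 12939 with only the plates compared. Without an 8w pw1 plate they were 87 of 14528 and 82 of 14575. Without a 1w pw2 plate they were 93 of 14537 and 89 of 14517. The 0 came from leaving out a 0w or 1w pw1 plate, which leaves 1 plate in a compared group. At 1w pw2 against 0w the number was 0, and it was 20 with DESeq2. It was 1 without the filter on low counts, 1 with stricter cells and 2 with only the plates compared. All-gene calls there were 41 of 15651 without the filter, 11 of 13038 with stricter cells and 12 of 13010 with only the plates compared. At 8w pw1 against 1w pw1 it was 0, and it was 10 with DESeq2, 1 with stricter cells and 1 with only the plates compared (15 of 13038 and 9 of 12832 over all genes). DESeq2 called 3 at 8w pw1 against 0w, 1 for 1w pw2 against 1w pw1 and 6 for 1w pw2 against 8w pw1, where edgeR called 0. Over all genes DESeq2 called 732, 163, 693, 570, 42 and 291, against 73, 0, 37, 16, 0 and 1 with edgeR.

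Replicate plates of different time points share only a number, and their deviations from the time point means correlated at 0.121 to 0.213. With the replicate block the related genes called were 8 for 1w pw1 against 0w, 3 for 1w pw2 against 0w and 3 for 8w pw1 against 1w pw1, and 0 in the other 3 comparisons, and over all genes the block gave 236, 3, 96, 110, 0 and 8 calls.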
